A study of Mus musculus with 6 samples.

Results

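The BCL2 family decides whether a cell keeps its mitochondria intact or dies by the intrinsic route of apoptosis. This account follows 10 of its mouse genes, chosen by symbol out of the 34199 symbols listed in each count file. They were the pro-survival genes Bcl2, Bcl2l1 (which encodes BCL-XL), Mcl1, Bcl2a1b and Bcl2a1d, the effector gene Bak1, and the BH3-only genes Bcl2l11 (BIM), Bid, Bad and Pmaip1 (NOXA). Of these, 8 passed the filter on low counts and were tested, whereas Bcl2a1b and Bcl2a1d had at most 8 reads in any library. RNA was sequenced from iGMPs, a C57Bl/6 mouse line of granulocyte-macrophage progenitors that self-renew for as long as estradiol keeps a fusion of HOXA9 with the estrogen receptor active. All groups carried this fusion and a Lys-GFP reporter, were grown with stem cell factor, and were harvested after 24 h. CAF-1 OFF cells were kept in estradiol (150 ng/ml) and received 500 µM IPTG to express a hairpin RNA against Chaf1b, a subunit gene of the histone chaperone CAF-1. Control cells were kept in estradiol and also received IPTG, and the labels did not name their vector. HOXA9 OFF cells were washed free of estradiol, and the labels did not say whether they received IPTG or which clone each culture came from. Each group had 2 libraries, and the labels did not say that these came from separate cultures. Independent sub-clones are named in the study for its RNA-seq before induction and at a later day, but are not tied to the replicate numbers used here. Where libraries of a group do not come from separate cultures, p-values measure only the spread between such libraries.

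Pro-survival proteins of this family hold the effectors BAK and BAX in check at the outer mitochondrial membrane. BH3-only proteins bind the pro-survival proteins, and some also engage the effectors directly, which then permeabilise the membrane and release cytochrome c. In myeloid cells MCL1 is a short-lived protein that progenitors and granulocytes depend on, BCL2 is known to decline as granulocytes mature, and the A1 proteins encoded by the Bcl2a1 copies are typical of mature neutrophils.

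The Bcl2a1 copies are nearly identical, which limits what their counts can show, and the start of their coding sequence is printed here for that reason. The first 100 coding bases of Bcl2a1a, Bcl2a1b and Bcl2a1d, from the GENCODE transcripts of assembly NCBIM37, are given 5′ to 3′ with capitals at the positions where the copies differ.
Bcl2a1a: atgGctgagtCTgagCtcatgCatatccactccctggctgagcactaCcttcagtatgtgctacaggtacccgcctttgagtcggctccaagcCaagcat
Bcl2a1b: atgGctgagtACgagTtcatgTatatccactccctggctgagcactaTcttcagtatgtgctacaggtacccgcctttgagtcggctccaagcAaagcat
Bcl2a1d: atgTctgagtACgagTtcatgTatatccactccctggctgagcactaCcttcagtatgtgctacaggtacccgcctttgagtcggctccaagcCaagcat
Over all 519 coding bases, Bcl2a1b and Bcl2a1d differed at 6 positions (98.8% identity), and Bcl2a1a differed from Bcl2a1b at 11 and from Bcl2a1d at 7. Of the 50-base windows along the annotated transcript, 57.4% in Bcl2a1b and 84.0% in Bcl2a1d occurred exactly in another copy. Of the 100-base windows, 30.9% and 58.2% did. The share thus depends on the read length, which the methods of the study do not give for bulk RNA-seq. A read that lies within a shared window has no single place in the genome, so the counts of single copies are uncertain.

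The libraries held between 16773560 and 25170898 reads assigned to genes, and 3 reads corresponded to 0.118 to 0.182 CPM (counts scaled to a common library size after TMM normalisation). Chaf1b, the target of the hairpin, stood at 14.9 ± 4.01 CPM in CAF-1 OFF, against 97.5 ± 10.7 CPM in control (SD, n = 2), so that its log2 fold change (log2FC) was -2.71 ± 0.20 (SE, edgeR FDR 0.0198). Without CAF-1 OFF replicate 2, control replicate 1 or control replicate 2 it stayed between -2.81 and -2.46, and the call was lost (edgeR FDR 0.0665, 0.142 and 0.135). It was also lost with the replicate number as a block (-2.72, edgeR FDR 0.0562). In HOXA9 OFF Chaf1b was at 62.9 ± 2.30 CPM and was called lower than control too (log2FC -0.63 ± 0.18, edgeR FDR 0.0396). That call was lost with the replicate block as well. All 7 progenitor markers were detected with more than 3 reads in every library, and none of the 3 T cell markers was. Of the 7 progenitor markers, 4 were called in HOXA9 OFF against control with edgeR. Cd34 fell from 1800 ± 5.93 to 495 ± 16.1 CPM (log2FC -1.86), Kit (-1.16) and Ctsg (-0.68) fell too, and Fcgr3 rose (1.63). Between CAF-1 OFF and control 0 were called, with 2 at an unadjusted p under 0.05. Summed over the 7 genes, levels were 14170 and 11050 CPM in control, 16620 and 15010 CPM in the CAF-1 OFF libraries, and 14620 and 11660 CPM in HOXA9 OFF. Summed neutrophil markers (7 genes, of which 5 to 7 were detected) were at 20.8 and 31.0 CPM in control, at 50.5 and 55.5 CPM in the CAF-1 OFF libraries, and at 676.5 and 1064 CPM in HOXA9 OFF. Summed macrophage markers (4 genes, 3 or 4 detected) were at 28.1 and 51.2, 31.5 and 38.8, and 419 and 474 CPM in the same order, with the lower value first. The neutrophil and macrophage sums, and the 4 progenitor markers called, moved with every difference between HOXA9 OFF and the other groups given here. Their part in it was not tested. Both neutrophil sums in CAF-1 OFF also lay above both controls. All 6 neutrophil genes tested had a positive log2FC there and 0 were called, with S100a8 at 2.8 ± 0.39 (edgeR FDR 0.098). The part of these markers in differences between CAF-1 OFF and control was not tested either. In bulk RNA, fewer cells of a type and less RNA per cell cannot be told apart.

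Of the 8 family genes tested, 0 passed the call between CAF-1 OFF and control, where a call needed at least a 1.5-fold change and an edgeR FDR under 0.05. Over all 12460 genes tested, 0.0321% were called in this comparison. At an unadjusted p under 0.05 there were 3 family genes (Bcl2l1, Bid and Pmaip1), with 10.7% of all genes at that level. Against control, HOXA9 OFF had 1 called family gene, Pmaip1, which was higher, beside 22% of all genes called in this comparison (13% higher and 8.97% lower). Here 4 family genes (Bcl2l11, Bid, Mcl1 and Pmaip1) had an unadjusted p under 0.05, with 41.9% of all genes. Between CAF-1 OFF and HOXA9 OFF, 1 family gene was called, Bcl2l1, which was higher in CAF-1 OFF, beside 22.1% of all genes (9.56% higher and 12.6% lower). At an unadjusted p under 0.05 these were 2 (Bcl2l1 and Mcl1), with 42.3% of all genes. The libraries of both groups did not overlap for 4, 6 and 3 of the 8 genes in these comparisons, and for 40.1%, 71% and 66.7% of all genes. The median size of the log2FC, regardless of sign, was 0.319 for the 8 genes and 0.166 for all genes in CAF-1 OFF against control. In HOXA9 OFF against control it was 0.299 for the 8 genes and 0.374 for all genes, and in CAF-1 OFF against HOXA9 OFF it was 0.24 and 0.375. The first and the second comparison share the control libraries.

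**Figure D1:**
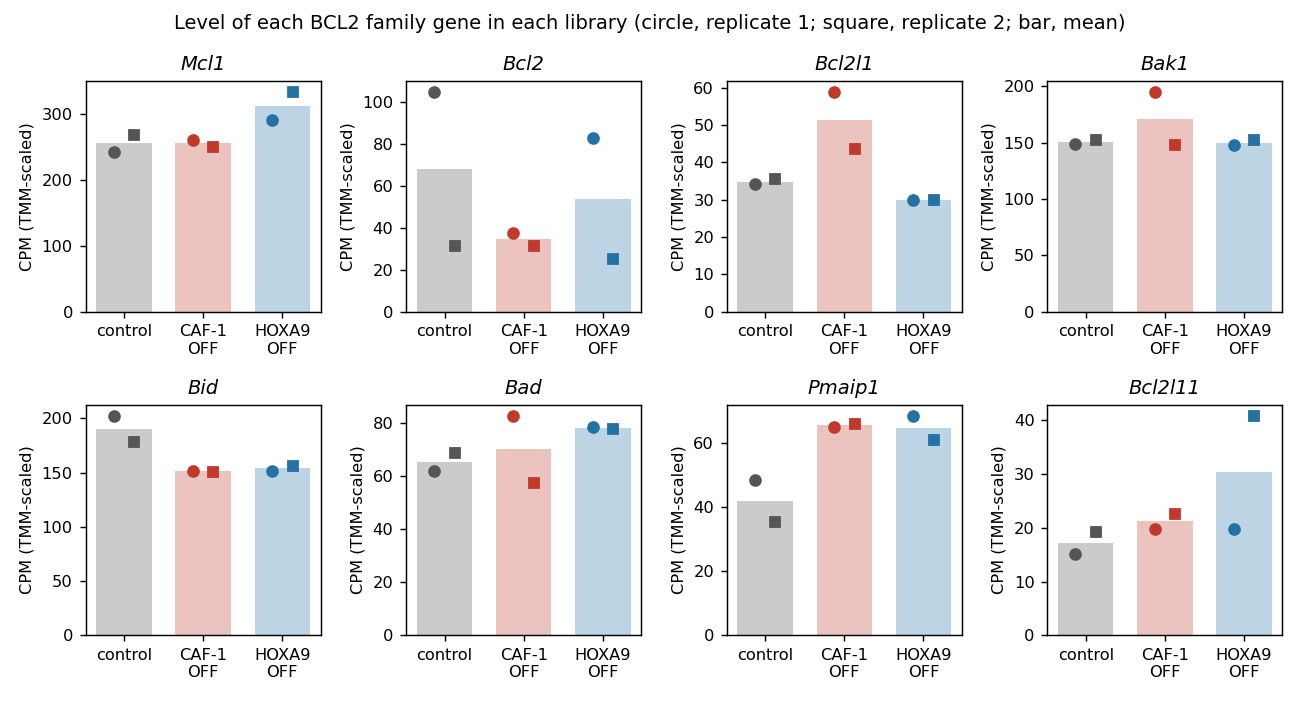
Expression of the 8 tested BCL2 family genes in CPM (vertical axes, linear from 0) in each group, with circles for replicate 1, squares for replicate 2 and bars for the mean of both. Replicate 1 of Bcl2 stands at 105 CPM in control and 82.8 CPM in HOXA9 OFF, far above replicate 2 of either group, whereas both CAF-1 OFF libraries lie close to the lower values.

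Mcl1 (chromosome 3, 95462643 to 95467099, protein coding) encodes the short-lived guardian that sequesters BAK, BIM and NOXA. It was at 243 and 268 CPM in control, 261 and 250 CPM in CAF-1 OFF and 291 and 333.5 CPM in HOXA9 OFF. The CAF-1 OFF values lay between the controls, whereas both HOXA9 OFF values lay above all others. In CAF-1 OFF against control the log2FC was 0.00 ± 0.11 (edgeR FDR 1.00, 95% interval -0.26 to 0.27). In HOXA9 OFF it was 0.29 ± 0.11 above control (edgeR FDR 0.0947) and no call was made. CAF-1 OFF stood below HOXA9 OFF by the same size (log2FC -0.29 ± 0.11, edgeR FDR 0.094). Without HOXA9 OFF replicate 2 these values were 0.19 and -0.19.

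Bcl2 (chromosome 1, 108434755 to 108610851, minus strand, protein coding), the founding pro-survival gene of the family, varied more within 2 of the groups than between any of them. It had 2675 and 541 counts in control, 728 and 623 in CAF-1 OFF and 1717 and 416 in HOXA9 OFF. In CPM it was 105 and 31.4 CPM in control, 37.8 and 31.5 CPM in CAF-1 OFF, and 82.8 and 25.2 CPM in HOXA9 OFF. Replicate 1 thus exceeded replicate 2 by 3.35-fold in control and by 3.28-fold in HOXA9 OFF, against 1.2-fold in CAF-1 OFF. Of 9614 genes with a mean of at least 5 CPM, only Bcl2, Chst13 and Hmgn1 had ratios at least this large in both groups, and 18 reached 2-fold in both.

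Most genes on one side of Bcl2 differed between replicates in the same direction, by less, which was examined after the values of Bcl2 were seen. The rule for genes of like pattern, the smallest root mean square distance between centred log2 CPM profiles over the 6 libraries, gave Ube2t, Dstyk, Klhl12, 3110009E18Rik and Dyrk3 (distances 0.397 to 0.43, 9606 genes searched). All 5 lie on chromosome 1, between 122017764 and 136870739. From Bcl2 to Zfp281, over 30.1 Mb of this chromosome, 75 of 77 other genes were higher in replicate 1 of both control and HOXA9 OFF. Their median ratio of replicate 1 to replicate 2 was 1.62-fold in control, 1.64-fold in HOXA9 OFF and 0.952-fold in CAF-1 OFF. The ends of this interval are the outer ends of the runs of genes described below, which were sought by this same replicate difference. The count and the medians in control and HOXA9 OFF were thus largely set by that choice.

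Phlpp1, the nearest gene before Bcl2 with a mean of at least 5 CPM, differed between replicates by 0.01 in control and 0.17 in HOXA9 OFF on the log2 scale, while Pign, further out, differed by 0.56 in control and -0.03 in HOXA9 OFF. Kdsr and Vps4b, the next genes on the other side of Bcl2, differed by 0.88 and 0.85 in control and by 0.70 and 0.68 in HOXA9 OFF. Zfp281 still differed by 0.68 and 0.78, whereas the next gene, Ptprc, differed the other way (-0.37 and -0.95) and Nek7 after it by 0.14 and 0.05. A search of all chromosomes for runs of at least 5 genes with a shared difference (running median of 5 genes of at least 0.4) found 2 runs. Both lie on chromosome 1, and the interval from Bcl2 to Zfp281 was drawn from their outer ends. Of the 9425 genes outside these runs, 29.7% were higher in replicate 1 of both groups. On the chromosomes other than 1, medians lay between -0.03 and 0.04 in both groups. Bcl2 itself had a larger difference than each of the 77 other genes in both groups. DNA copy number was not measured, and what set these libraries apart was not tested.

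**Figure D2:**
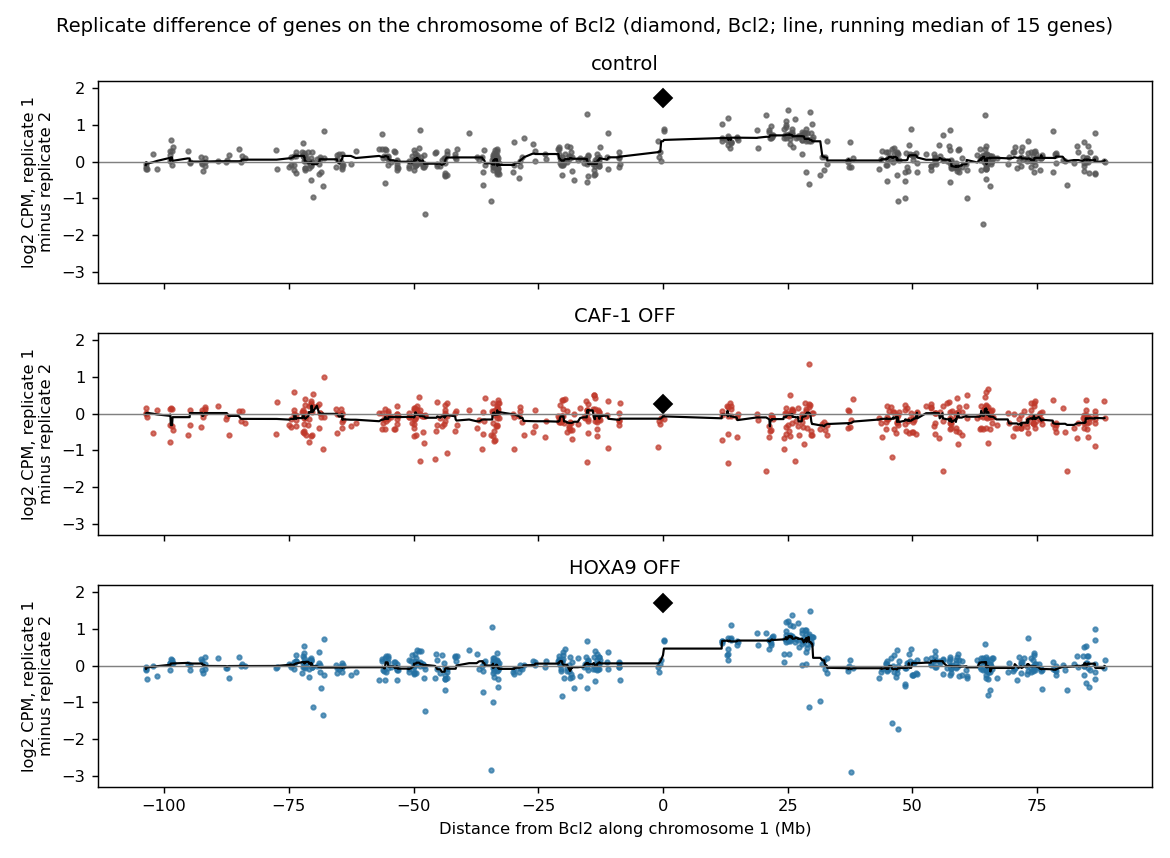
Difference in log2 CPM between replicate 1 and replicate 2 (vertical axes) for genes on chromosome 1, by their distance from Bcl2 in Mb (horizontal axis), in each group. Points are genes with a mean of at least 5 CPM, the diamond is Bcl2 and the line is a running median of 15 genes, which stays near 0 in CAF-1 OFF and rises over the 30.1 Mb that begin at Bcl2 in control and HOXA9 OFF.

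The tests of Bcl2 have to be read with these libraries in view. With all libraries, the log2FC of Bcl2 between CAF-1 OFF and control was -0.98 ± 0.66 (edgeR FDR 0.652, 95% interval -2.55 to 0.59). Without replicate 1 of control and of HOXA9 OFF, a fit chosen after seeing the data, the difference was 0.15 (edgeR FDR 1). In HOXA9 OFF against control it was -0.34 ± 0.65 (edgeR FDR 0.732, 95% interval -1.88 to 1.21). Libraries of the same number differed by -0.34 and -0.32 in this comparison. Without control replicate 1 alone the fitted difference was 0.78, and without HOXA9 OFF replicate 2 alone it was 0.27. In CAF-1 OFF against HOXA9 OFF it was -0.64 ± 0.66 (edgeR FDR 0.501), and 0.47 without both replicate 1 libraries (edgeR FDR 0.249). No Bcl2 difference exceeded the spread between replicates in the fit to all libraries. With no filter on low counts the first comparison passed the call, at -0.996 (edgeR FDR 0.0457), with 1.9% of all genes called under that setting. D630008O14Rik shares 558 exon bases with Bcl2 on the opposite strand and had 0 reads in every library.

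Bcl2l1 (chromosome 2, 152593052 to 152657464, protein coding), the BCL-XL gene, was at 34.1 and 35.5 CPM in control, 58.8 and 43.6 CPM in CAF-1 OFF and 29.99 and 29.93 CPM in HOXA9 OFF. No group overlapped another, and CAF-1 OFF was highest. Its level in CAF-1 OFF exceeded that in HOXA9 OFF by 1.71-fold (log2FC 0.77 ± 0.16, edgeR FDR 0.0135). This call was lost without CAF-1 OFF replicate 1 (0.54, edgeR FDR 0.0369, under 1.5-fold), without HOXA9 OFF replicate 1 (0.78, edgeR FDR 0.068) and without HOXA9 OFF replicate 2 (0.77, edgeR FDR 0.0642). Against control, CAF-1 OFF stood at 0.56 ± 0.16 (edgeR FDR 0.311, 95% interval 0.18 to 0.94), short of the call. This difference was 0.33 without CAF-1 OFF replicate 1 and 0.76 without CAF-1 OFF replicate 2. HOXA9 OFF stood at -0.21 ± 0.16 (edgeR FDR 0.353).

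Bcl2l1 shared with Bak1 and Bad a higher value in CAF-1 OFF replicate 1 than in replicate 2, by 1.35, 1.32 and 1.44-fold (0.43, 0.40 and 0.52 on the log2 scale). These libraries also differed with exon length, with medians of replicate 1 minus replicate 2 of 0.24 for genes under 2 kb, 0.07 from 2 to 4 kb, -0.10 from 4 to 8 kb and -0.32 at 8 kb or more. By the union of their exons, Bad (2007 bases) and Bak1 (2407) belong to the second of these classes and Bcl2l1 (4734) to the third. By their longest transcript, Bad (1451) belongs to the first, and Bak1 (2387) and Bcl2l1 (2417) to the second, so that the sign of the median beside Bcl2l1 depends on the length chosen. In control the medians of the shortest and the longest class were -0.11 and 0.16, and in HOXA9 OFF they were 0.04 and -0.01.

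Markers of mast cells, basophils and megakaryocytes were also higher in replicate 1 of CAF-1 OFF than in replicate 2. The summed mast cell and basophil markers (3 genes, 2 detected, Fcer1a at 0 reads in CAF-1 OFF) were at 575 CPM in replicate 1 and 221.5 CPM in replicate 2, against 193 and 161 CPM in control and 229 and 298 CPM in HOXA9 OFF. Cpa3 made up most of this sum, at 468 and 177.5 CPM in CAF-1 OFF. Mcpt8 was at 75.6 ± 44.5 CPM in CAF-1 OFF, 33.7 ± 1.54 CPM in control and 23.5 ± 2.15 CPM in HOXA9 OFF (SD, n = 2). The summed megakaryocyte markers (3 genes, all detected) stood at 73.3 and 35.2 CPM in these libraries of CAF-1 OFF. In control they stood at 24.2 and 27.2 CPM, and in HOXA9 OFF at 65.0 and 76.3 CPM. The part of these markers, and of exon length, in the values of Bcl2l1, Bak1 and Bad was not tested.

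Bcl2a1b (chromosome 9, 89094047 to 89102665) and Bcl2a1d (chromosome 9, 88618126 to 88626708) encode A1, a pro-survival protein of activated and mature leukocytes. Bcl2a1b had 2 and 0 reads in control, 1 and 0 in CAF-1 OFF and 8 and 5 in HOXA9 OFF. Bcl2a1d had 6 and 2 reads in control, 0 and 0 in CAF-1 OFF and 7 and 6 in HOXA9 OFF. HOXA9 OFF had the most reads of both copies, and CAF-1 OFF was at or under 3 reads. For Bcl2a1d the lower count in HOXA9 OFF equalled that of control replicate 1 (6 reads). Scaled for depth, these were 0.3635 and 0.2355 CPM. When the 4 listed copies were summed, the counts were 10 and 2 in control, 1 and 5 in CAF-1 OFF, and 25 and 21 in HOXA9 OFF. The sum in CAF-1 OFF was below that in HOXA9 OFF (log2FC -2.96 ± 0.77, edgeR FDR 0.0293), whereas the difference of 2.17 ± 0.70 between HOXA9 OFF and control had an edgeR FDR of 0.0581. CAF-1 OFF and control differed by -0.79 ± 0.88 (edgeR FDR 0.793). The sum passed the filter on low counts only through its reads in HOXA9 OFF, the group where it was high. Its tests against HOXA9 OFF are therefore a description only. With no filter, Bcl2a1d taken by itself passed the call between CAF-1 OFF and HOXA9 OFF (edgeR FDR 0.0234, with 16.4% of all genes called), a test that rests on 0 reads in both CAF-1 OFF libraries against 7 and 6, so that its fitted fold is not given. With so few reads these values carry large counting errors. Bcl2a1b also shares 401 exon bases with Mthfs on the same strand, which was at 0.961 to 3.38 CPM and itself highest in HOXA9 OFF.

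**Figure D3:**
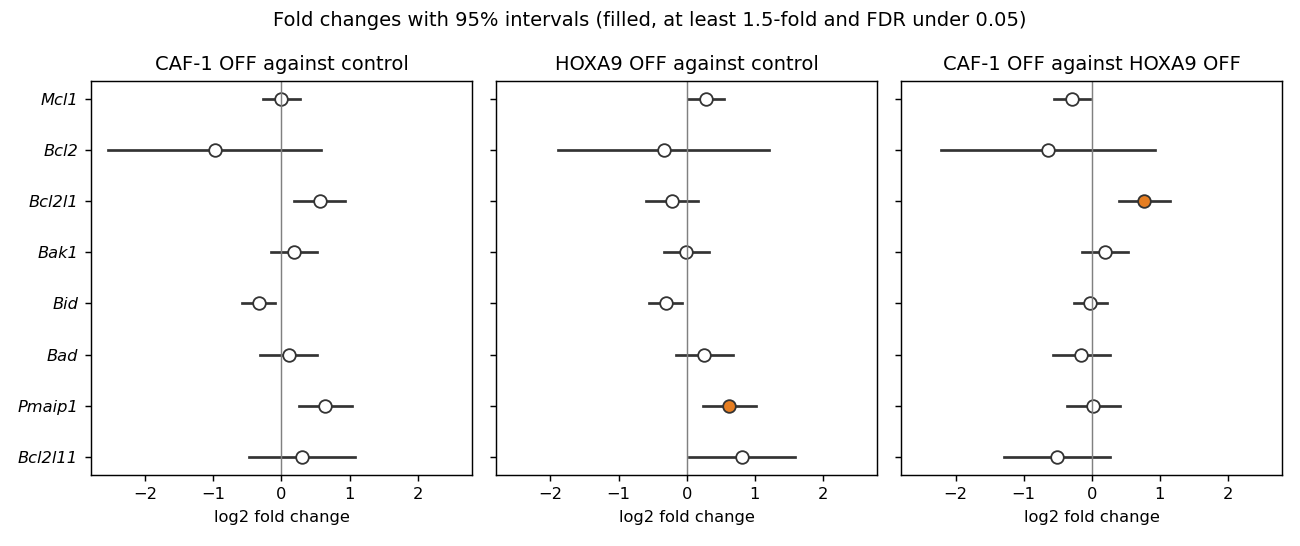
Log2FC (horizontal axes) of the 8 tested family genes with 95% intervals from the edgeR fit, in the 3 comparisons. Filled points passed the call, which were Pmaip1 at 0.62 in HOXA9 OFF against control and Bcl2l1 at 0.77 in CAF-1 OFF against HOXA9 OFF, and the intervals of Bcl2 are the widest in each panel.

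Bak1 (chromosome 17, 27156755 to 27165954), the effector that forms pores in the mitochondrial membrane, was at 149 and 152 CPM in control, 195 and 148 CPM in CAF-1 OFF, and 148 and 152 CPM in HOXA9 OFF. All libraries but CAF-1 OFF replicate 1 lay between 148 and 152 CPM. The log2FC was -0.00 ± 0.14 in HOXA9 OFF against control (edgeR FDR 0.984, 95% interval -0.34 to 0.33) and 0.19 ± 0.14 in CAF-1 OFF against control (edgeR FDR 0.698). Without CAF-1 OFF replicate 1 the latter was -0.03.

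Among the BH3-only genes, Pmaip1 (chromosome 18, 66618258 to 66625204) was the member that passed the call against control. It encodes NOXA, which binds MCL1 and is known as a p53 target. Pmaip1 was at 48.5 and 35.3 CPM in control, 65.2 and 66.1 CPM in CAF-1 OFF and 68.6 and 60.9 CPM in HOXA9 OFF. CAF-1 OFF and HOXA9 OFF lay above both controls and overlapped each other. It rose by 1.54-fold in HOXA9 OFF (log2FC 0.62 ± 0.16, edgeR FDR 0.0299). This call was lost without control replicate 2 (0.42, edgeR FDR 0.132), without HOXA9 OFF replicate 1 (0.54, edgeR FDR 0.146), without HOXA9 OFF replicate 2 (0.71, edgeR FDR 0.0678), and when library size alone was used for scaling (0.54, edgeR FDR 0.0396).

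In CAF-1 OFF against control the estimate for Pmaip1 was of like size, 0.64 ± 0.16, but its edgeR FDR was 0.273. It passed the call with the DESeq2 Wald test (0.65, FDR 0.0451), with the edgeR exact test (0.64, FDR 0.04) and with no filter (0.63, FDR 0.0118). These settings called 1.54%, 1.89% and 1.9% of all genes in this comparison. CAF-1 OFF and HOXA9 OFF differed by 0.02 ± 0.16 (edgeR FDR 0.942, 95% interval -0.37 to 0.41).

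Bcl2l11 (chromosome 2, 127951774 to 127988283) encodes BIM, which binds all pro-survival members. It was at 15.2 and 19.2 CPM in control, 19.7 and 22.6 CPM in CAF-1 OFF, and 19.7 and 40.8 CPM in HOXA9 OFF. HOXA9 OFF replicate 2 stood apart from the other 5 libraries. With both libraries, HOXA9 OFF was 0.82 ± 0.33 above control (edgeR FDR 0.106). Without HOXA9 OFF replicate 1 the difference was 1.25 (edgeR FDR 0.0166), and without HOXA9 OFF replicate 2 it was 0.20. It was also called without replicate 1 of both control and HOXA9 OFF (1.08, edgeR FDR 0.0358) and with no filter on low counts (0.81, edgeR FDR 0.00392, a setting that called 16.2% of all genes). CAF-1 OFF differed from control by 0.31 ± 0.33 (edgeR FDR 0.788), and by 0.15 without control replicate 1, 0.48 without control replicate 2 and 0.21 without CAF-1 OFF replicate 2. From HOXA9 OFF it differed by -0.51 ± 0.33 (edgeR FDR 0.278). Without HOXA9 OFF replicate 1 this was called, at -0.95 (edgeR FDR 0.0369), and without replicate 2 it was 0.10. The genes of most similar profile were Ptprc, Ap3d1, Lpxn, Cd180 and Plxnb2 (distances 0.0875 to 0.169 over 6 libraries).

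Bid (chromosome 6, 120841948 to 120866871), whose product is cleaved by caspase-8 and so links death receptors to mitochondria, was at 202 and 178.5 CPM in control, 152 and 151 CPM in CAF-1 OFF, and 152 and 156 CPM in HOXA9 OFF. Both controls lay above all 4 other libraries. The log2FC against control was -0.33 ± 0.10 in CAF-1 OFF (edgeR FDR 0.335) and -0.31 ± 0.10 in HOXA9 OFF (edgeR FDR 0.0625), and neither reached 1.5-fold. Bid shares 628 exon bases with Bcl2l13 on the opposite strand, which was at 93.7 to 105 CPM. Whether the counting used strand was not stated, so reads from such pairs cannot be told apart with certainty.

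Bad (chromosome 19, 7016351 to 7026388), a BH3-only gene whose product is held inactive by growth factor signalling, was at 62.0 and 68.6 CPM in control, 82.8 and 57.6 CPM in CAF-1 OFF, and 78.4 and 77.9 CPM in HOXA9 OFF. The CAF-1 OFF libraries lay on both sides of the controls. The log2FC against control was 0.10 ± 0.17 in CAF-1 OFF (edgeR FDR 0.877), and -0.18 without CAF-1 OFF replicate 1. In HOXA9 OFF it was 0.26 ± 0.17 (edgeR FDR 0.306). Bad shares 517 exon bases with Gpr137, and Bak1 shares 357 with Ggnbp1, both on the opposite strand. Gpr137 was at 31.2 and 36.3 CPM in control, 35.5 and 27.6 CPM in CAF-1 OFF, and 42.9 and 41.8 CPM in HOXA9 OFF, so it moved with Bad across these libraries, and its part in the values of Bad was not tested. Ggnbp1 was at 0.868 to 1.39 CPM.

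To set the genes side by side, levels were expressed per kilobase of annotated exon (CPM per kb). In control the order was Mcl1 at 73.3 ± 5, Bak1 at 62.6 ± 0.898, Bid at 53.6 ± 4.76, Bad at 32.5 ± 2.35, Pmaip1 at 15.8 ± 3.54, Bcl2 at 9.48 ± 7.24, Bcl2l1 at 7.35 ± 0.199 and Bcl2l11 at 2.14 ± 0.351 CPM per kb (SD, n = 2). The spread of Bcl2 was wide enough that its place beside Bcl2l1 could not be settled. In CAF-1 OFF, Bcl2l1 stood at 10.8 ± 2.27 and Bcl2 at 4.82 ± 0.617, and in HOXA9 OFF they stood at 6.33 ± 0.00919 and 7.51 ± 5.66. By this length Mcl1 and Bak1 were the highest 2 in each of the 3 groups, at 73.3 ± 2.35 and 71.2 ± 13.8 in CAF-1 OFF and at 89.6 ± 8.60 and 62.4 ± 1.06 in HOXA9 OFF. The order depended on the length used. Per kilobase of the longest transcript, a choice added after seeing the data, they were the highest 2 in CAF-1 OFF only. Bid then led in control (78.8 ± 6.99, with Mcl1 at 73.3 ± 5.0 and Bak1 at 63.1 ± 0.904). In HOXA9 OFF it stood at 63.7 ± 1.16 beside Bak1 at 62.9 ± 1.07, within their spread. Bcl2l1 then stood above Bcl2 in control (14.4 ± 0.39 against 9.48 ± 7.24) and in HOXA9 OFF (12.4 ± 0.0184 against 7.51 ± 5.66), with a wide spread of Bcl2 in both.

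Mcl1 made up most of the pro-survival RNA per exon length in every library. Its share of the 5 pro-survival genes was 75.9% and 86.5% in control, 80.9% and 84.1% in CAF-1 OFF, and 81.7% and 90.0% in HOXA9 OFF, with overlap between all groups. Bcl2 accounted for 15.9% and 4.91% in control, 5.67% and 5.14% in CAF-1 OFF, and 11.3% and 3.30% in HOXA9 OFF. The share of Bcl2l1 was 12.1% ± 1.83 in CAF-1 OFF, 8.13% ± 0.419 in control and 6.07% ± 0.176 in HOXA9 OFF (SD, n = 2). These 3 groups did not overlap for Bcl2l1, and each pair had a two-sided exact permutation p of 0.333, the smallest that 2 libraries against 2 can give. With the longest transcript as length the share of Bcl2l1 was larger in each group. That length is 2417 bases against 4734 for Bcl2l1, and does not differ from the exon union for the other pro-survival genes counted here. The low share of Mcl1 in control replicate 1 was the counterpart of the high share of Bcl2 there.

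**Figure D4:**
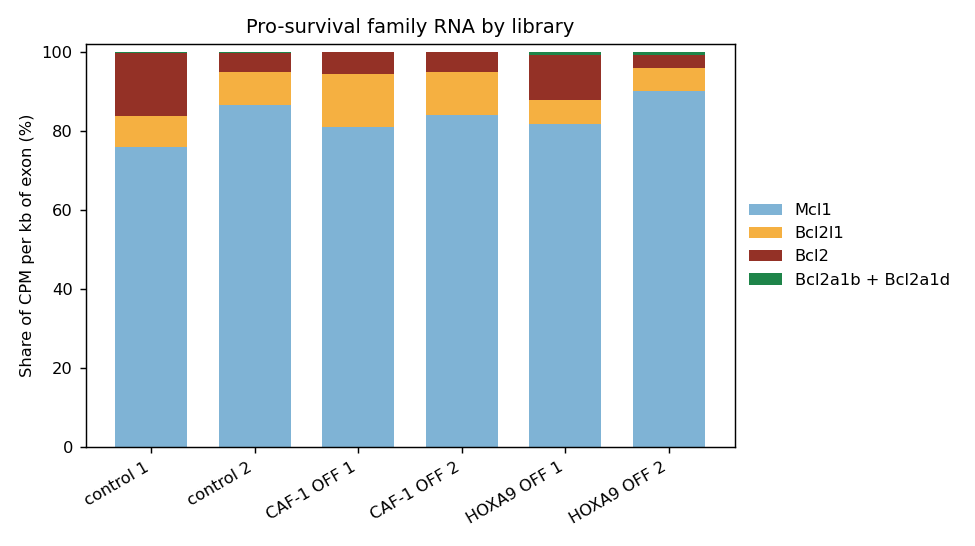
Share of each pro-survival gene (vertical axis, percent of summed CPM per kb of exon) in each of the 6 libraries, with Bcl2a1b and Bcl2a1d joined. Mcl1 holds between 75.9% and 90.0%, and the Bcl2 segment is largest in control replicate 1 (15.9%) and HOXA9 OFF replicate 1 (11.3%).

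The other genes of the pathway were taken from 8 lists with 61 genes, of which 53 were tested. Between CAF-1 OFF and control there were 0 calls, with 7 at an unadjusted p under 0.05, beside 10.7% of all genes at that level. In HOXA9 OFF against control 14 were called, 10 higher and 4 lower, and in CAF-1 OFF against HOXA9 OFF 13 were called, 4 higher and 9 lower. The shares of all genes called given above apply to these counts too. Overlaps of these genes with their neighbours were not examined.

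Of the other BH3-only genes, 1 of 2 tested was called, and it was the largest difference among all 53. Bmf, whose product binds pro-survival proteins once released from the actin cytoskeleton, was at 1.57 and 1.74 CPM in control, 1.71 and 2.08 CPM in CAF-1 OFF, and 22.7 and 18.7 CPM in HOXA9 OFF. It rose in HOXA9 OFF by a log2FC of 3.64 ± 0.24 (edgeR FDR 0.000405), while CAF-1 OFF stood close to control (0.20 ± 0.25, edgeR FDR 0.82). Among the other BCL2-related genes, 2 of 6 rose in HOXA9 OFF. These were Bcl2l14, from 1.89 ± 0.283 to 6.10 ± 0.234 CPM (edgeR FDR 0.0052), and Bnip3l, a mitophagy receptor, from 148.5 ± 5.74 to 233 ± 8.24 CPM (edgeR FDR 0.00385). Scaled by library size alone, Bnip3l stood at 0.57, under 1.5-fold, and was not called. The other effector tested and the other pro-survival gene tested, Bcl2l2, had 0 calls.

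Of the 14 genes of mitochondrial execution, 1 rose and 3 fell in HOXA9 OFF. Apaf1, the scaffold of the apoptosome, rose from 81.3 ± 19.5 to 173 ± 29.4 CPM (log2FC 1.09 ± 0.21, edgeR FDR 0.00972), a call lost without control replicate 2 (0.86, edgeR FDR 0.0507) or HOXA9 OFF replicate 1 (0.90, edgeR FDR 0.0529). Htra2 (-0.81), Endog (-0.76) and Diablo (-0.69), which encode proteins released from mitochondria, fell (edgeR FDR 0.00623, 0.0478 and 0.00694). Diablo went from 86.8 ± 4.55 to 53.8 ± 5.37 CPM, and its product counters the inhibitors of apoptosis. The call of Diablo was lost without HOXA9 OFF replicate 2 (-0.59, edgeR FDR 0.0505), and that of Endog without any 1 of the 4 libraries (-0.85 to -0.67, edgeR FDR 0.11 to 0.2) or with the replicate number as a block (-0.76, edgeR FDR 0.0677). Among these inhibitors, 2 of 5 rose, Birc3 by 0.86 ± 0.13 (edgeR FDR 0.00456) and Xiap by 0.64 ± 0.17 (edgeR FDR 0.0333). Xiap was at 94.1 and 72.1 CPM in control, 69.1 and 88.6 CPM in CAF-1 OFF, and 135.5 and 123 CPM in HOXA9 OFF. Its call was lost without control replicate 2 (0.46, edgeR FDR 0.17), HOXA9 OFF replicate 1 (0.56, edgeR FDR 0.147) or HOXA9 OFF replicate 2 (0.70, edgeR FDR 0.0807), and with library size alone (0.56, under 1.5-fold) or the replicate number as a block (0.64, edgeR FDR 0.0537).

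In the death receptor pathway, 3 of 11 genes rose in HOXA9 OFF and 0 fell. The receptor genes Tnfrsf1a and Fas rose by 1.31 ± 0.13 (edgeR FDR 0.00114) and 2.84 ± 0.63 (edgeR FDR 0.0163), although Fas reached only 7.34 ± 0.762 CPM. The call of Fas was lost without control replicate 1, control replicate 2 or HOXA9 OFF replicate 2, at 2.73 to 2.97 (edgeR FDR 0.0681, 0.0861 and 0.0557). Cflar, which encodes the caspase-8 inhibitor c-FLIP, rose from 46.6 ± 5.63 to 90.5 ± 6.34 CPM (edgeR FDR 0.00324). Of 13 genes of survival signalling and turnover of family proteins, 1 rose and 1 fell. Pim1, a kinase that phosphorylates BAD, was at 10.7 and 11.4 CPM in control, 27.2 and 22.6 CPM in CAF-1 OFF and 87.4 and 91.8 CPM in HOXA9 OFF. It rose by 3.02 ± 0.14 in HOXA9 OFF (edgeR FDR 0.000133), and was at 1.17 ± 0.14 in CAF-1 OFF against control, where it missed the call (edgeR FDR 0.0751). That difference was called with the DESeq2 Wald test (1.18, FDR 3.19e-08), the edgeR exact test (1.17, FDR 6.24e-08), no filter (1.16, edgeR FDR 3.08e-06) and the crossed block added after seeing the data (1.17, edgeR FDR 0.0178). Kit, the receptor for stem cell factor, fell from 626 ± 118 to 281 ± 26.4 CPM in HOXA9 OFF (log2FC -1.16 ± 0.16, edgeR FDR 0.00366), and both CAF-1 OFF libraries (676 and 809.5 CPM) stood near the controls (709 and 542 CPM). Kit is also a progenitor marker, and Cd34 and Ctsg of that list fell with it, as given above.

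**Figure D5:**
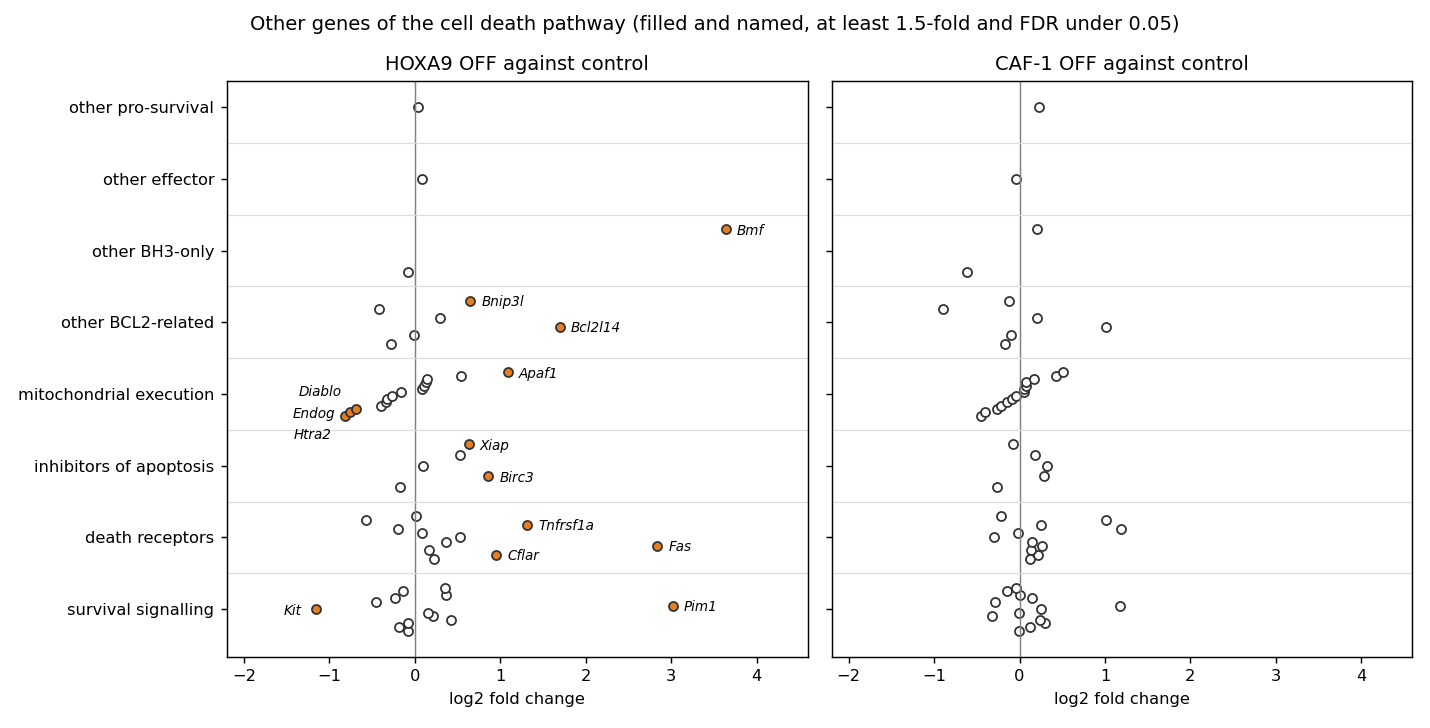
Log2FC (horizontal axes) of the 53 tested genes of the cell death pathway outside the 10 family genes, grouped by list (vertical axis), in HOXA9 OFF against control (left) and CAF-1 OFF against control (right). The 14 filled and named points passed the call in HOXA9 OFF, from Kit at -1.16 to Bmf at 3.64, and no point passed it in CAF-1 OFF.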

How the data were processed

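Total RNA of iGMPs (3 groups, 2 libraries each) was made into 6 libraries with a directional NEBNext kit and sequenced. The authors aligned reads to mm9 with STAR and counted them with HTSeq, and the deposited values were raw counts per gene symbol. The annotation, strand setting and overlap mode of the counting are not given in the sources used here. The 5 HTSeq tally lines of each file were left out.

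The statistics were computed with edgeR 4.0.16 under R 4.3.3 (filterByExpr by group, TMM scaling, quasi-likelihood test on all 6 libraries, Benjamini-Hochberg FDR over 12460 genes). A call needed a change of at least 1.5-fold and FDR under 0.05, as in the study's methods. Differences are log2 and come with an SE derived from the F statistic. Replicate differences are log2(CPM + 0.1). Exon lengths, coordinates (1-based) and transcripts came from GENCODE for NCBIM37, the assembly that mm9 names, since the files hold no coordinates. Intervals and floors of 3 counts cover counting error only where no replicates enter. The fitting steps were tested on simulated counts.

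The members and gene lists were chosen with earlier results of these data known. Named pathway genes were, per list, up to 4 with the largest change among those called in HOXA9 OFF against control. The genes most like a profile were taken for Bcl2 and for the member with the largest change in HOXA9 OFF. Alternatives were DESeq2 1.42.0 (size factors, Wald test), library size alone, the edgeR exact test, other filters and cutoffs, only the 4 libraries compared, a replicate block, summed Bcl2a1 copies, the longest transcript as length for the shares, and fits without each library, in which a lone library is assumed to vary like the other groups. Added after seeing the data were a crossed block, the fit without replicate 1 of control and HOXA9 OFF, the search for gene runs, the medians by exon length, and the longest transcript as length for the order of levels.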

Additional observations from a re-analysis of the deposited data

How the results depend on the processing

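Between CAF-1 OFF and control, calls over all genes went from 4 to 192 (DESeq2), 236 (edgeR exact test), 378 (no filter), 9 (4 libraries compared), 0 (2-fold and FDR under 0.01) and 91 (without control replicate 1 and HOXA9 OFF replicate 1), and to 0 to 10 without single libraries. Members called there went from 0 to 1, 1 and 2 with DESeq2, the exact test and no filter. In HOXA9 OFF against control, calls went from 2740 to 987 at the stricter cutoff, 1393 without both replicate 1 libraries, and 1592 to 2817 without single libraries, and members called went from 1 to 0 (library size alone, stricter cutoff), 2 (no filter) and 0 to 1 (single libraries). In CAF-1 OFF against HOXA9 OFF they were 948 at the stricter cutoff and 1716 to 2728 without single libraries, with members at 0, 2 (no filter) and 0 to 1. Cutoffs change these counts by construction. For the other settings, filters and fewer libraries included, the cause was not tested.

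Same-numbered deviations correlated at -0.178, 0.456 and 0.033 in these comparisons. The labels do not say what libraries of one number share, and 2 pairs are too few to take the pairing from the data, so the block stayed an alternative, although control and HOXA9 OFF of the same number deviated together. With the replicate block there were 2 calls between CAF-1 OFF and control, where Bcl2 stood at -0.70 and Chaf1b lost its call, and with crossed numbers 71. In HOXA9 OFF against control with the block, Bcl2 stood at -0.33 (edgeR FDR 0.538), and Endog (-0.76), Xiap (0.64) and Chaf1b (-0.64) lost their calls. The block changed no call of a member.

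Signs turned for Mcl1 in CAF-1 OFF against control with library size alone (-0.0040), no filter (-0.011) and without both replicate 1 libraries (-0.063), where Bcl2 was 0.15. Bid in CAF-1 OFF against HOXA9 OFF turned with library size alone (0.054), and Bcl2 without both replicate 1 libraries (0.47). Without single libraries, log2 fold changes in CAF-1 OFF against control ranged from -1.60 to 0.15 for Bcl2, -0.063 to 0.072 for Mcl1, -0.18 to 0.34 for Bad and -0.027 to 0.37 for Bak1. In HOXA9 OFF against control they ranged from -1.44 to 0.78 for Bcl2 and -0.024 to 0.013 for Bak1. In CAF-1 OFF against HOXA9 OFF they ranged from -1.26 to 0.46 for Bcl2, -0.95 to 0.10 for Bcl2l11, -0.44 to 0.083 for Bad, -0.022 to 0.38 for Bak1 and -0.063 to 0.11 for Pmaip1, which was 0.12 without both replicate 1 libraries. Over the genes named, 678 of 765 values kept both direction and call. The share of Mcl1 in pro-survival RNA went from 82.5% to 73.9% in CAF-1 OFF with the longest transcript as length. With all Bcl2a1 copies, Bcl2l2 and Bcl2l10 included, it went to 74.1% in CAF-1 OFF and from 85.8% to 78.7% in HOXA9 OFF. These settings also lowered the share in the groups not listed for them, by no more than their SD (7.52 in control, 5.88 in HOXA9 OFF). Among the members, Bcl2a1b and Bcl2a1d had too few counts to be tested, and the part of depth in the values of the others was not tested.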
